A study of Rattus norvegicus with 372 samples.

Results

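Acetaminophen at 10000 µM, the higher of its 2 concentrations, was compared with vehicle in cultured primary rat hepatocytes after 24 h. The wells were taken by their labels, as every WT well of this chemical and concentration, 3 in batch 1 and 3 in batch 2, and were set against all 9 vehicle wells, 3 in batch 1 and 6 in batch 2. These 6 acetaminophen wells were among 186 wells of the series, each run by both TempO-Seq assays, so that 12 of 372 libraries were acetaminophen at this concentration. The study treated hepatocytes with 14 chemicals at 2 concentrations each and asked how reproducible the platform was and how its ST and WT assays compared. In TempO-Seq, pairs of detector oligos are ligated on a transcript and sequenced, so a count is of ligated probes, and levels are given here in CPM, the count of a probe scaled to library size. The WT assay held 22253 probes and the ST assay 2654 probes.

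All groups were hepatocytes freshly isolated from male Wistar rats and kept between layers of collagen in 96-well plates, in William's medium E with insulin, dexamethasone and EGF. Acetaminophen and vehicle wells both contained 0.5% DMSO for 24 h, the vehicle wells with no chemical added. Each batch was the hepatocytes of 1 rat, and the 3 acetaminophen wells of a batch lay in 1 row of a plate, so wells are technical replicates and only the 2 batches are biological ones. A p-value within a batch therefore measures the spread between wells of 1 animal. In batch 1 the acetaminophen wells were on plate 5 and the vehicle wells on plate 4, so plate and treatment cannot be told apart there. In batch 2 the acetaminophen wells were on plate 3, with 3 vehicle wells on the same plate and 3 on plate 2. Wells of 400 µM acetaminophen, which alternated with the 10000 µM wells in the same row, gave a second reference in both batches.

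Acetaminophen is cleared by the liver mainly by glucuronidation and sulfation, and a smaller part is oxidized by cytochrome P450 enzymes, among them CYP2E1, to a reactive quinone imine. Glutathione traps this metabolite, and when glutathione runs short the metabolite binds cell proteins, which is the textbook basis of overdose injury. Cells meet such electrophiles with genes under the transcription factor NRF2, with heat shock proteins for damaged proteins, and with p53 and ATF4 programmes.

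Acetaminophen wells had 3639634 to 6505996 WT reads in batch 1 and 8445547 to 8882292 in batch 2, against 5492941 to 8264980 and 5788931 to 7199877 in vehicle wells. In batch 2 all 3 acetaminophen wells were deeper than every vehicle well (exact two-sided permutation test, p = 0.0238, the smallest this design allows). In batch 1 the depths overlapped (exact two-sided permutation test, p = 0.4, the smallest possible being 0.1). The 10 most abundant probes took a mean of 18.9% of WT reads with acetaminophen and 13.4% with vehicle in batch 1, and 14.5% and 11.5% in batch 2. Of the 8 hepatocyte markers, all tested, 0 were higher and 3 were lower in both batches, and albumin (Alb) did not pass the test, at L2FC 0.25 ± 0.16 and 0.14 ± 0.10. The 8 markers of Kupffer cells and leukocytes, of which 5 could be tested, summed to 41.0 to 48.1 CPM with acetaminophen and 55.7 to 79.6 CPM with vehicle in batch 1, and to 36.7 to 59.0 and 59.7 to 75.4 CPM in batch 2. Among them Cd68 was higher and Clec4f, Cd163 and Cd14 were lower. Col1a2 and Col3a1, the 2 tested stellate cell markers, were both lower. Of the 3 tested cholangiocyte markers 0 were called, and Krt7 was at 0 in every well. No endothelial marker had enough counts to be tested. In bulk lysate, fewer cells of a type and less RNA per cell cannot be told apart, and the part of these markers in the results was not tested.

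Most of the measured transcriptome differed from vehicle. Of 10689 WT probes with a mean of at least 10 counts over all wells, 3520 (32.9%) were higher and 3784 (35.4%) lower in batch 1, and 3916 (36.6%) were higher and 4030 (37.7%) lower in batch 2, at an adjusted p under 0.05 by the quasi-likelihood test of edgeR with Benjamini-Hochberg adjustment. With the same sign in both batches, 3176 probes (29.7%) were higher and 3325 (31.1%) lower. Below, "rose", "fell" and "called" mean this call in both batches, and a pair of L2FC values (log2 fold change, acetaminophen minus vehicle, ± SE) gives batch 1 and then batch 2. A further 41 probes were called in both batches with opposite signs, and 1981 were called in neither. At an absolute L2FC of at least 1 in both batches, 1608 probes rose and 2086 fell, and at 3 or more 107 rose and 284 fell.

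These directions are relative to TMM scaling, under which the median L2FC of all probes was −0.05 in batch 1 and −0.02 in batch 2. With total counts alone as scale that median was −0.48 and −0.41, and the higher share of calls went from 48.2% to 30.1% in batch 1 and from 49.3% to 32.8% in batch 2. Changes under about that size are therefore changes relative to the median gene. Against the 400 µM wells in place of vehicle, 2873 probes (26.9%) were higher and 3087 (28.9%) lower in both batches. At 400 µM itself, 44 probes in batch 1 and 217 in batch 2 differed from vehicle, 7 of them in both batches with one sign. Between the vehicle wells of plates 3 and 2 of batch 2, edgeR called 0 of 10689 probes (0%), with 1476 at an unadjusted p under 0.05.

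**Figure D1:**
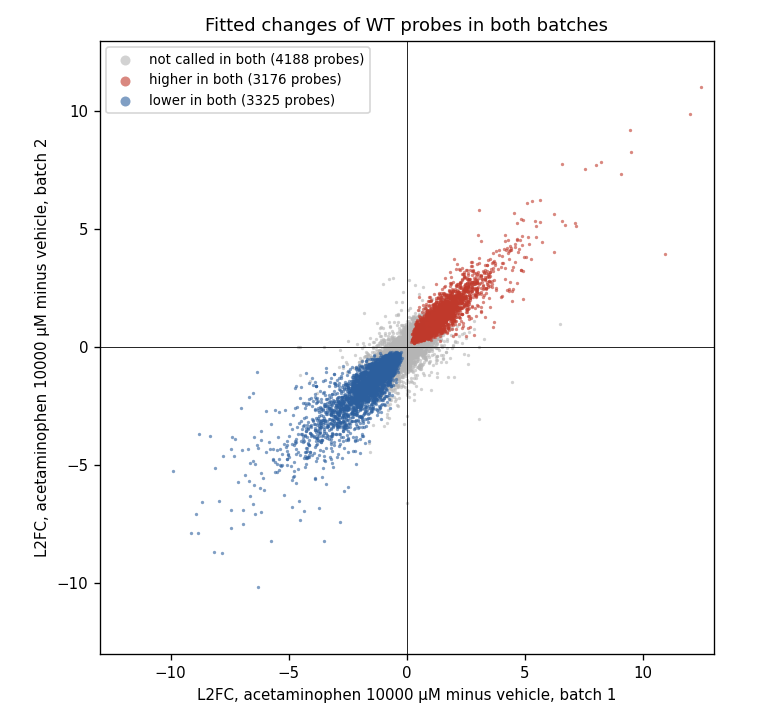
Each point is 1 of 10689 WT probes, with its L2FC (acetaminophen 10000 µM minus vehicle) in batch 1 on the x axis and in batch 2 on the y axis. The 3176 probes higher in both batches (red) lie in the upper right and the 3325 lower in both (blue) in the lower left, and grey points were not called in both batches with one sign.

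Transcripts close to absent from vehicle wells were among the largest rises. Pygm, which encodes muscle glycogen phosphorylase, was at 211, 68.2 and 137 CPM with acetaminophen against 0.581, 0.174 and 0.487 CPM with vehicle in batch 1, and 121, 64.8 and 99.8 against 0.143 to 1.1 (median 0.289) CPM in batch 2. Its L2FC was 8.24 ± 0.57 and 7.86 ± 0.37. Mest, an imprinted gene that encodes a hydrolase-like protein, was at 132, 255 and 207 CPM with acetaminophen against 0.581, 0.523 and 1.14 CPM with vehicle in batch 1, and 139, 213 and 237 against 0.286 to 1.86 (median 0.892) CPM in batch 2, an L2FC of 8.04 ± 0.40 and 7.72 ± 0.31. Every acetaminophen well of both genes lay far above every vehicle well. Nrip3 was the most abundant of the group, at 574, 529.7 and 540.5 CPM against 13.9, 11.3 and 12.2 CPM in batch 1 and at 701, 622 and 742 CPM against 12.7 to 20.8 (median 16.8) CPM in batch 2. Hap1, which encodes the huntingtin-associated protein, rose by 6.25 ± 0.54 and 5.67 ± 0.38, Fam222a by 6.57 ± 0.32 and 5.37 ± 0.21, Phyhipl by 5.63 ± 0.45 and 5.31 ± 0.35 and the phosphodiesterase gene Pde4c by 7.12 ± 0.48 and 5.28 ± 0.29 on the log2 scale. The acetaminophen and vehicle wells of these 7 genes did not overlap in either batch.

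A further 14 probes rose from at most 3 counts in every vehicle well of a batch, where a fitted L2FC has no firm base, and 7 of those with the largest rise are given here as ratios. The protocadherin gene Pcdh17 was at least 157-fold higher in batch 1, where all 3 vehicle wells were at 0 and a floor of 3 counts per well was used, and 1277-fold higher (95% interval 353 to 10556) in batch 2. Trim17, for a ubiquitin ligase, was 758-fold higher (95% interval 259 to 3682) and 669.5-fold higher (95% interval 286 to 2065). Intervals of such ratios are exact and cover counting error only, since the reads carried no molecular identifiers. In batch 2 Rab44 was 329.6-fold higher (95% interval 173 to 722), and Unc5d, a netrin receptor gene, 241-fold higher (95% interval 110.2 to 659). Stk32c was 215-fold higher (95% interval 72.9 to 1046) in batch 1 and 211-fold higher (95% interval 89.7 to 652) in batch 2. The Wnt receptor gene Fzd9 was 650.1-fold higher (95% interval 179 to 5378) in batch 1. Shc4 was 99.7-fold higher (95% interval 26.9 to 835) in batch 2.

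The largest falls were of genes that vehicle wells expressed at a modest level and acetaminophen wells hardly or not at all. Slc10a2, the apical sodium-dependent bile acid transporter, was at 0, 0 and 0.259 CPM against 51.2, 47.7 and 51.2 CPM in batch 1, that is 594-fold lower (95% interval 106 to 23499), and in batch 2 it was 149-fold lower (95% interval 50.8 to 723). Acnat1, a peroxisomal acyl transferase gene, was 702-fold lower (95% interval 126 to 27743) and 263-fold lower (95% interval 89.9 to 1277). Urad, a gene of urate breakdown, was 199-fold lower (95% interval 54.8 to 1644) and 274-fold lower (95% interval 48.9 to 10825). Another 4 had at most 1 count over the acetaminophen wells of a batch.

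Of these, Ccdc38 was at least 5.62-fold lower and at least 14.5-fold lower, Nat8f3 at least 2.38-fold lower and at least 6.41-fold lower, and the homeobox gene Meox2 at least 2.37-fold lower and at least 4.29-fold lower. Ms4a18 was at least 9.07-fold lower in batch 1 and 313-fold lower (95% interval 55.9 to 12374) in batch 2. A bound can be no larger than the depth of the shallowest well allows, and it was lower in batch 1 than in batch 2 for each of these genes with a bound in both.

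The enzymes that oxidize acetaminophen did not move one way. Of 7 tested genes (of 12 listed) on P450 oxidation, 3 rose and 3 fell, with a median L2FC of −0.28 and 0.21, and with total counts alone as scale 2 rose, 3 fell and the batch 2 median turned to −0.18. Cyp2e1, the P450 best known for making the quinone imine, was at 13.1, 13.4 and 15.8 CPM with acetaminophen against 3.6, 2.61 and 2.76 CPM with vehicle in batch 1, and 25.1, 15.4 and 22.6 against 3.52 to 11.6 (median 5.47) CPM in batch 2. It rose by 2.21 ± 0.33 and 1.66 ± 0.29 (edgeR adjusted p = 2.38e-08 and 4.45e-07). Por, the reductase that passes electrons to all microsomal P450s, was at 313, 429.6 and 399.8 CPM with acetaminophen against 109.9, 103 and 88.6 CPM with vehicle in batch 1, and 501, 494 and 471 against 114 to 134 (median 123) CPM in batch 2, an L2FC of 1.92 ± 0.16 and 1.99 ± 0.10. For both genes every acetaminophen well was above every vehicle well. Cyb5a, for cytochrome b5, which can also feed electrons to P450s, went the other way, with an L2FC of −1.92 ± 0.15 and −1.32 ± 0.13.

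Cyp1a2, which also oxidizes acetaminophen, was at 304, 533 and 494 CPM with acetaminophen against 608, 592 and 413 CPM with vehicle in batch 1, and 653, 745 and 882 against 520.2 to 756 (median 668) CPM in batch 2. Its wells overlapped in both batches and it was not called, at an L2FC of −0.28 ± 0.26 and 0.21 ± 0.18 (edgeR adjusted p = 0.339 and 0.285), and the batch 2 value turned to −0.18 with total counts. Cyp3a9 rose by 0.52 ± 0.16 and 1.01 ± 0.17, with overlapping wells in batch 1, where total counts alone or leaving out acetaminophen well 2 ended its call. Cyp2d1 fell at −2.34 ± 0.22 and −1.82 ± 0.17 and Cyp2d2 at −1.39 ± 0.29 and −1.03 ± 0.21. CYP3A2 and CYP3A1 had a probe under these symbols only in the ST assay. CYP3A2 was at 78.1 to 113 CPM with acetaminophen and 13.2 to 33.5 CPM with vehicle in batch 1, and at 40.3 to 69.7 and 8.93 to 17.4 CPM in batch 2, and rose by 2.12 ± 0.30 and 1.83 ± 0.22. CYP3A1, at 0.39 ± 0.25 and 0.90 ± 0.21, was not called in both batches.

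The conjugating enzymes, which attach glucuronic acid or sulfate to most of the drug at low exposure, were mostly lower. Of 11 tested genes (of 26 listed) on glucuronidation and sulfation, 1 rose and 8 fell, with a median L2FC of −1.91 and −1.12. Sult1a1, the main phenol sulfotransferase, was at 4.71, 9.6 and 6.73 CPM with acetaminophen against 222, 202 and 176 CPM with vehicle in batch 1, and 12.1, 13.1 and 12.6 against 311 to 426 (median 369) CPM in batch 2, an L2FC of −4.77 ± 0.22 and −4.86 ± 0.20. Sult1b1, a related phenol sulfotransferase, fell from 662, 682 and 604 CPM to 9.42, 6.6 and 5.69 CPM in batch 1 and from 470.3 to 593 (median 536) CPM to 17.4, 16.7 and 22.8 CPM in batch 2, an L2FC of −6.52 ± 0.25 and −4.82 ± 0.16. Both fell to a few percent of the vehicle level or less, with no overlap of wells. Ugp2, which makes the UDP-glucose from which the glucuronic acid donor is formed, fell, at L2FC −1.91 ± 0.18 and −2.55 ± 0.20. The 1 member that rose was Sult1e1, the estrogen sulfotransferase, at 2.04 ± 0.35 and 1.00 ± 0.27, which was added here after its value was seen. In the ST assay SULT2A6, a hydroxysteroid sulfotransferase, was at 0.898 to 1.11 CPM with acetaminophen and 35.0 to 44.2 CPM with vehicle in batch 1, and at 1.86 to 4.28 and 17.7 to 29.0 CPM in batch 2. UGT2B1 also fell there, at L2FC −3.28 ± 0.40 and −1.20 ± 0.22, and UGT1A1, which conjugates phenols, was at −0.20 ± 0.23 and −0.76 ± 0.19 and not called in both batches.

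Glutathione S-transferases, which join glutathione to electrophiles, were also lower more often than higher. Of 17 tested genes (of 21 listed), 2 rose and 9 fell, with a median L2FC of −0.84 and −0.97, and with total counts 1 rose and 14 fell. Gstm2 was at 42.7, 53.8 and 41.9 CPM with acetaminophen against 385, 330.3 and 338 CPM with vehicle in batch 1, and 81.8, 81.8 and 100.4 against 534 to 691 (median 589) CPM in batch 2. Gstm2, Gstm4 and Gstz1, which also takes part in tyrosine breakdown, fell, with L2FC of −2.92 ± 0.16 and −2.76 ± 0.13 for Gstm2, −2.30 ± 0.30 and −2.81 ± 0.28 for Gstm4, and −2.81 ± 0.18 and −2.37 ± 0.13 for Gstz1. Members of the GST, UGT, SULT and CYP families are close in sequence, and reads of near-identical copies may have been split or shared by the probes.

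NRF2 target genes were called in both directions, at shares near those of all probes. Of 25 tested genes (of 29 listed) on NRF2 and glutathione synthesis, 9 rose and 7 fell, which is 36% and 28% beside 29.7% and 31.1% of all probes, with a median L2FC of 0.08 and 0.36, and with total counts 9 rose, 8 fell and both medians turned, to −0.35 and −0.02. Txnrd1, thioredoxin reductase, was at 785, 929.9 and 686 CPM with acetaminophen against 109, 61.5 and 129 CPM with vehicle in batch 1, and 734, 605 and 1255 against 54.4 to 88.4 (median 74.9) CPM in batch 2. Nqo1, a quinone reductase, was at 294, 510.3 and 419 CPM with acetaminophen against 65.7, 61.1 and 53 CPM with vehicle in batch 1, and 318, 424 and 481 against 54.5 to 64.5 (median 58.8) CPM in batch 2. In both genes the lowest acetaminophen well was several times the highest vehicle well, and L2FC was 3.00 ± 0.39 and 3.53 ± 0.31 for Txnrd1 and 2.77 ± 0.19 and 2.78 ± 0.15 for Nqo1. Ftl1, the ferritin light chain that stores iron, rose by 2.78 ± 0.19 and 2.54 ± 0.10 from 3211, 2745 and 2530 CPM in the vehicle wells of batch 1 to 11939, 27924 and 18382 CPM. Ferritin genes have many processed copies, so its probe may have drawn reads from them. In the ST assay SRXN1, which repairs peroxiredoxins, rose by 2.69 ± 0.27 and 3.33 ± 0.21, from 78.9 to 82.4 CPM up to 455 to 645 CPM in batch 1 and from 57.7 to 76.5 CPM up to 559 to 731 CPM in batch 2.

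Within glutathione synthesis itself, the genes chosen after their values were seen diverged. Gclc, the catalytic subunit of the first and rate-limiting enzyme, rose by 1.33 ± 0.13 and 1.00 ± 0.12, while its modifier subunit Gclm, at −0.06 ± 0.28 and 0.41 ± 0.23, was not called and Gss, the second enzyme, was at −1.35 ± 0.20 and −0.89 ± 0.21. Hmox1, which breaks down heme, rose by 2.69 ± 0.14 and 2.34 ± 0.26. Nfe2l2, the gene of NRF2, was at −1.66 ± 0.19 and −1.09 ± 0.18 and Keap1, its inhibitor, at −0.83 ± 0.25 and −1.24 ± 0.17, both called lower. The antioxidant response element core TGACNNNGC, searched on both strands in the 250 bases before the start of each gene in RefSeq promoters of the rat assembly GRCr8, was in 5 of 20 NRF2 list promoters (25%) and in 10.2% of all 27457. It was in 2 of 6 promoters of members that rose, those of Me1 and Prdx1, and in 1 of 7 of members that fell, that of Gpx2. The promoter windows below are shown because they are the called members with this match, with the matched letters in capitals, 5′ to 3′ on the strand of the gene, Me1 on chr8:96540383-96540431 (minus strand), Prdx1 on chr5:135383751-135383799 (plus strand) and Gpx2 on chr6:101230034-101230066 (minus strand).
Me1: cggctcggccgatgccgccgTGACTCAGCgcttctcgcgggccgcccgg
Prdx1: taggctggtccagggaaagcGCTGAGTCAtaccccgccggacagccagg
Gpx2: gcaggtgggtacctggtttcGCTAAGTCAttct

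Me1, malic enzyme, which makes NADPH, rose by 0.92 ± 0.17 and 0.94 ± 0.12, and the peroxiredoxin gene Prdx1 rose by 1.91 ± 0.25 and 2.02 ± 0.23. Gpx2, a glutathione peroxidase gene whose window holds the same core, fell, at L2FC −1.66 ± 0.47 and −0.51 ± 0.17. A match of letters is a description of these windows and not a binding site.

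The integrated stress response list also held genes that moved in both directions, more of them lower than higher. Of 26 tested genes (of 30 listed), 8 rose and 13 fell, with a median L2FC of −0.65 and −0.38. That is 30.8% and 50%, beside 29.7% and 31.1% of all probes. Cth, cystathionine gamma-lyase, which makes the cysteine needed for glutathione, was at 19.9, 18.6 and 29 CPM with acetaminophen against 513, 589 and 442 CPM with vehicle in batch 1, and 26.6, 24 and 21.8 against 501 to 673 (median 576) CPM in batch 2, an L2FC of −4.52 ± 0.25 and −4.58 ± 0.19. Phgdh, the first enzyme of serine synthesis, fell from 65.2, 70.7 and 54.3 CPM to 1.35, 2.6 and 1.29 CPM in batch 1 and from 41.7 to 73 (median 52) CPM to 2.16, 3 and 2.42 CPM in batch 2. Fgf21, a fasting and stress hormone of the liver, was 74-fold lower (95% interval 35.8 to 185) in batch 1 and at L2FC −6.96 ± 0.35 in batch 2. In these 3 genes no acetaminophen well reached the level of any vehicle well. Of genes added after their values were seen, the factors Atf4, Atf3 and Ddit3 (CHOP) rose, with L2FC of 1.14 ± 0.08 and 1.39 ± 0.08 for Atf4, 3.14 ± 0.22 and 3.03 ± 0.21 for Atf3, and 2.46 ± 0.15 and 2.64 ± 0.14 for Ddit3. Gdf15, a secreted stress signal, rose by 2.85 ± 0.16 and 2.75 ± 0.15, and Ppp1r15a, which returns translation to normal, by 2.82 ± 0.13 and 2.69 ± 0.13.

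The CEBP-ATF response element, read as TGATGNAA on both strands in the same windows, was in 5 of 23 promoters of this list (21.7%) and in 3.27% of all promoters. It was in 0 of 7 promoters of members that rose and in 4 of 11 of members that fell. The windows of these 4 are shown because they carry the element in genes that were lower, Chac1 on chr3:126795944-126795991 (plus strand), Pck2 on chr15:32997603-32997641 (plus strand), Slc7a1 on chr12:11664438-11664485 (plus strand) and Fgf21 on chr1:105221492-105221539 (minus strand), all GRCr8, with the matched letters in capitals.
Chac1: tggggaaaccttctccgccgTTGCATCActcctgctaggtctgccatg
Pck2: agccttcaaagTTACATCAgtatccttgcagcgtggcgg
Slc7a1: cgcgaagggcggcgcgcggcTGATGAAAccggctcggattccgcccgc
Fgf21: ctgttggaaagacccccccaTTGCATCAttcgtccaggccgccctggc

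Chac1, which degrades glutathione, had an L2FC of −2.16 ± 0.26 and −2.64 ± 0.26, Pck2, the mitochondrial PEP carboxykinase, of −4.02 ± 0.35 and −2.49 ± 0.25, and Slc7a1, a cationic amino acid transporter, of −1.91 ± 0.21 and −2.31 ± 0.20. Cytosolic aminoacyl-tRNA synthetases, which charge tRNAs and include further ATF4 targets, fell in most members. Of 16 tested genes (of 20 listed), 0 rose and 11 fell, with a median L2FC of −0.97 and −1.02. Iars, for isoleucine, was at 13.1, 22.4 and 18.4 CPM with acetaminophen against 105, 99.99 and 79.8 CPM with vehicle in batch 1, and 28.5, 30.5 and 21.7 against 100.1 to 131 (median 123) CPM in batch 2. Iars, Lars and Farsb fell, with L2FC of −2.37 ± 0.14 and −2.15 ± 0.10 for Iars, −1.82 ± 0.14 and −1.62 ± 0.12 for Lars, and −1.61 ± 0.11 and −1.56 ± 0.10 for Farsb, and no wells of these genes overlapped.

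Cytosolic heat shock genes were higher. Of 14 tested genes (of 19 listed), 10 rose and 1 fell, with a median L2FC of 0.66 and 0.79, and with total counts 6 rose and 1 fell. Hspa1a, the inducible HSP70, was at 325, 403 and 368 CPM with acetaminophen against 13, 6.79 and 9.43 CPM with vehicle in batch 1, and 387, 337 and 373 against 14.8 to 20.9 (median 16.8) CPM in batch 2, an L2FC of 5.20 ± 0.21 and 4.40 ± 0.32. Dnajb1, its HSP40 partner, rose from 23, 19.5 and 19 CPM to 78.8, 96.3 and 104 CPM in batch 1 and from 21 to 26.6 (median 22.8) CPM to 181, 143 and 125 CPM in batch 2. Both genes were clear of vehicle in every well. Cryab, a small heat shock protein, was the 1 member that fell, at −1.63 ± 0.21 and −2.82 ± 0.20. Hspa1a has a near-identical neighbour, Hspa1b, and the probe may not tell them apart.

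In the endoplasmic reticulum the picture was mixed. Of 16 tested genes (of 22 listed) on its chaperones and protein quality control, 7 rose and 7 fell, with a median L2FC of −0.39 and 0.18, against 3 and 7 and medians of −0.82 and −0.20 with total counts. Hspa5 (BiP), the main lumenal chaperone, rose by 1.68 ± 0.44 and 2.23 ± 0.43, while Herpud1, a part of the degradation machinery, and Sec61b, a subunit of the translocation channel, fell, with L2FC of −2.28 ± 0.18 and −1.60 ± 0.12 for Herpud1 and of −2.31 ± 0.41 and −1.62 ± 0.29 for Sec61b. Proteasome subunits were higher under TMM in 14 and lower in 3 of 30 tested genes (of 38 listed), with medians of 0.33 and 0.43, but with total counts only 3 rose, 6 fell and the batch 1 median turned to −0.10. Psmd13 and Psmd3, of the regulatory cap, rose, with L2FC of 1.46 ± 0.41 and 1.5 ± 0.34 for Psmd13 and of 1.39 ± 0.12 and 1.28 ± 0.11 for Psmd3. Psme2, an interferon-inducible activator subunit, went the other way at −1.82 ± 0.28 and −1.52 ± 0.22.

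Several p53 targets rose together. Of 18 tested genes (of 23 listed), 10 rose and 2 fell, with a median L2FC of 0.47 and 0.40, and with total counts 7 rose and 4 fell. Cdkn1a (p21), which halts the cell cycle, was at 42.7, 53.4 and 56.9 CPM with acetaminophen against 4.42, 6.97 and 4.39 CPM with vehicle in batch 1, and 53.8, 49 and 51.2 against 7.62 to 11.3 (median 8.9) CPM in batch 2. Ccng1, cyclin G1, was at 602, 259 and 694 CPM with acetaminophen against 50.9, 55.2 and 102 CPM with vehicle in batch 1, and 354, 233 and 758 against 23.3 to 105 (median 57.2) CPM in batch 2. Gadd45a, a DNA damage and stress gene, reached 977, 1631 and 1359 CPM against 249, 259 and 200.4 CPM in batch 1. Acetaminophen and vehicle wells were apart for each of the 3, with L2FC of 3.29 ± 0.29 and 2.52 ± 0.17 for Cdkn1a, 2.90 ± 0.36 and 2.88 ± 0.35 for Ccng1 and 2.49 ± 0.16 and 2.45 ± 0.14 for Gadd45a. Bax, the pore-forming death protein, was among those that fell, at −1.46 ± 0.17 and −1.07 ± 0.13, and was named after its value was seen.

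Among BCL2 family and caspase genes, 4 of 20 tested genes (of 26 listed) rose and 8 fell, with a median L2FC of −0.55 and −0.78, and with total counts 4 rose and 12 fell. Pmaip1 (NOXA), which blocks MCL1, was at 46.1, 58.2 and 56.9 CPM with acetaminophen against 2.21, 1.74 and 3.58 CPM with vehicle in batch 1, and 30.1, 32.2 and 47.4 against 0.999 to 2.6 (median 2) CPM in batch 2, an L2FC of 4.42 ± 0.31 and 4.23 ± 0.27. Mcl1, the survival protein that NOXA binds, also rose, by 2.73 ± 0.53 and 2.56 ± 0.40. Bcl2l1 (BCL-XL), another survival gene, fell from 127, 164 and 133 CPM to 12.4, 11.4 and 11.6 CPM in batch 1 and from 162 to 189 (median 181) CPM to 11.7, 14.1 and 9.38 CPM in batch 2. Of the list, 20% rose and 40% fell, beside 29.7% and 31.1% of all probes. Both shares lay within 10 percentage points of those of all probes.

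Immediate early genes rose in 10 and fell in 6 of 22 tested genes (of 26 listed), with a median L2FC of 0.52 and 0.12, the batch 2 median turning to −0.28 with total counts. Nr4a2, an orphan nuclear receptor, was at 14.8, 18.8 and 15 CPM with acetaminophen against 1.05, 0.523 and 0.812 CPM with vehicle in batch 1, and 28.5, 22.6 and 16.3 against 0.586 to 1.24 (median 0.933) CPM in batch 2, an L2FC of 4.28 ± 0.47 and 4.56 ± 0.31. The AP-1 genes Fos and Jund rose, with L2FC of 3.55 ± 0.33 and 2.59 ± 0.42 for Fos and of 2.78 ± 0.28 and 2.38 ± 0.21 for Jund. Of 17 tested genes (of 24 listed) on chemokines and NF-kB feedback, 4 rose and 3 fell, against 3 and 7 with total counts, where both medians turned from 0.26 and 0.12 to −0.16 and −0.27. Ccl2, which draws monocytes, rose by 2.61 ± 0.44 and 1.97 ± 0.38 and Cxcl10, which draws T cells, by 1.44 ± 0.22 and 1.61 ± 0.39, the latter without a call in batch 2 against 400 µM wells. Tnfaip3 (A20), an inhibitor of NF-kB signalling, fell, at L2FC −1.54 ± 0.12 and −1.62 ± 0.16. Metallothionein and zinc transport genes gave 1 rise and 2 falls among 8 tested genes (of 9 listed), the zinc exporter Slc30a1 at 0.82 ± 0.15 and 0.97 ± 0.10, the manganese exporter Slc30a10 at −2.96 ± 0.28 and −3.04 ± 0.21 and the importer Slc39a14 at −2.13 ± 0.13 and −2.23 ± 0.12. The list median was 0.38 and −0.14, the former turning to −0.05 with total counts.

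Transcription factors that hold the hepatocyte programme were broadly lower. Of 24 tested genes (of 26 listed), 5 rose and 16 fell, with a median L2FC of −1.99 and −1.97, or −1.99 and −1.87 with genes near 0 counts set to their bounds, and with total counts 3 rose and 17 fell. Nr1i2 (PXR), the main drug sensor of the liver, was at 2.36, 5.2 and 3.1 CPM with acetaminophen against 120, 132 and 127 CPM with vehicle in batch 1, and 8.64, 4.85 and 8.73 against 120.3 to 144 (median 129) CPM in batch 2, an L2FC of −5.07 ± 0.23 and −4.14 ± 0.21. Nr1i3 (CAR), its close relative, was 55.5-fold lower (95% interval 9.72 to 2213) in batch 1 and at −4.34 ± 0.44 in batch 2. Foxa3, a liver forkhead factor, fell, at L2FC −3.61 ± 0.22 and −3.94 ± 0.18, and Hnf4a, a central regulator of hepatocyte genes and one of the markers above, at −3.29 ± 0.22 and −2.57 ± 0.16. No well of these genes overlapped between the groups.

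**Figure D2:**
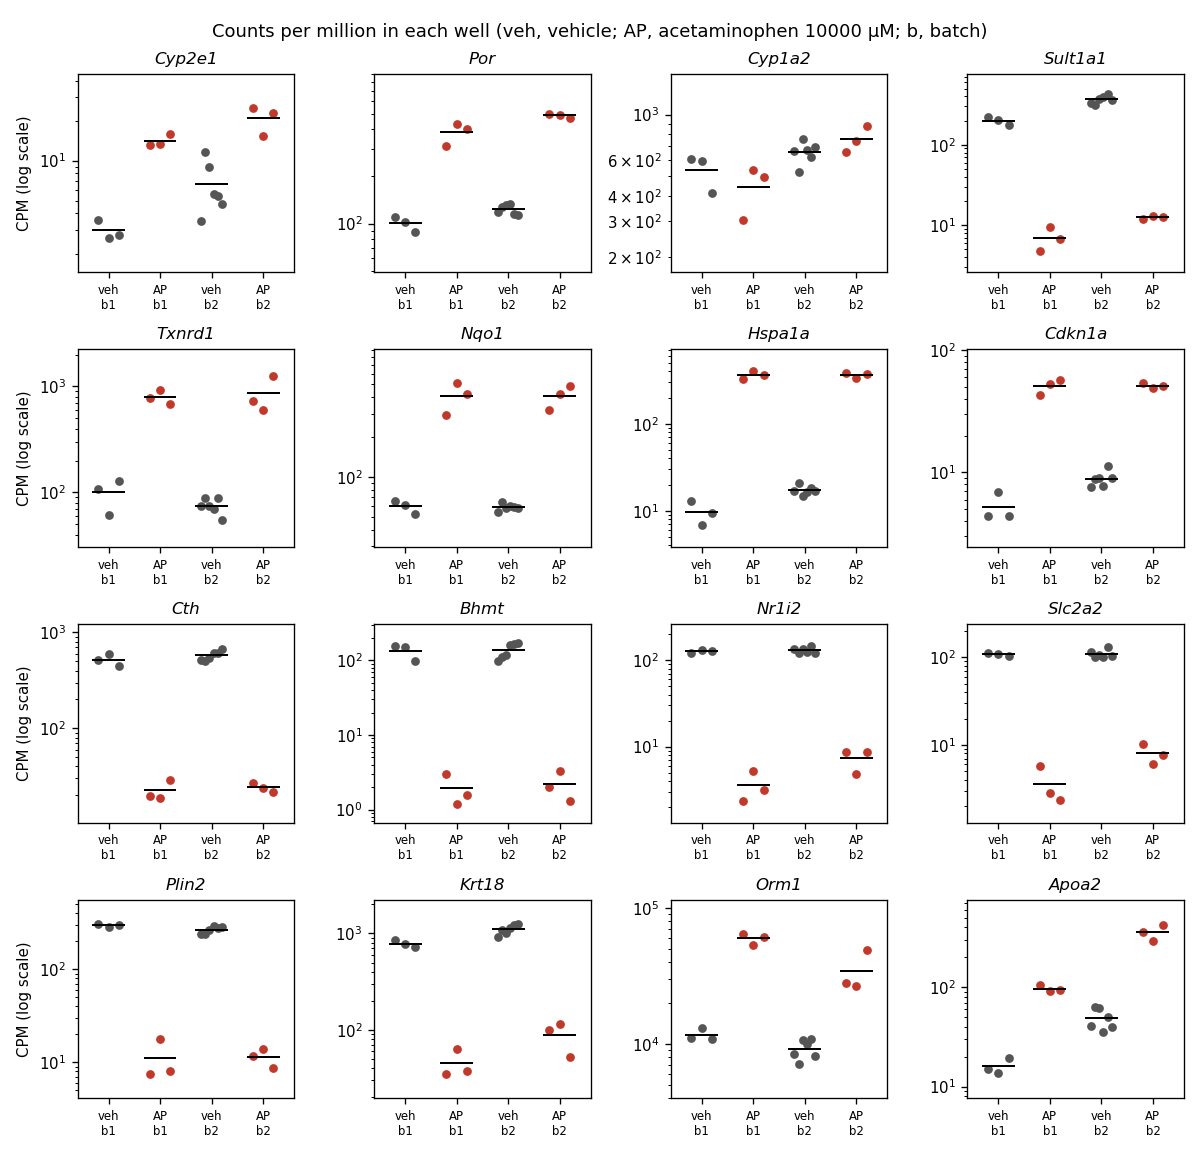
CPM of 16 genes in every well on a log axis, with vehicle in grey, acetaminophen in red and the group mean as a line, for batch 1 (3 and 3 wells) and batch 2 (6 and 3 wells). Cyp1a2 overlapped between the groups in both batches, and the other 15 genes, from Cyp2e1 and Por to Orm1 and Apoa2, did not overlap in either batch.

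Genes of bile acid handling were lower almost throughout. Of 8 tested genes (of 15 listed) on bile acid synthesis, 1 rose and 7 fell, with a median L2FC of −2.84 and −2.44. Cyp27a1, the first enzyme of the alternative pathway, was at 9.42, 7 and 6.47 CPM with acetaminophen against 62.9, 71.8 and 49.6 CPM with vehicle in batch 1, and 11.4, 15.3 and 17.1 against 79.6 to 118 (median 95.2) CPM in batch 2. Each acetaminophen well was below each vehicle well of its batch. Acox2, which shortens the bile acid side chain, and Akr1c14 fell, with L2FC of −5.46 ± 0.48 and −3.79 ± 0.32 for Acox2 and of −3.92 ± 0.21 and −3.75 ± 0.18 for Akr1c14, and that of Cyp27a1 was −3.03 ± 0.28 and −2.74 ± 0.20. Of 14 tested genes (of 23 listed) on transporters of bile acids, drugs and sterols, 2 rose and 11 fell, with a median of −2.39 and −1.54, and with total counts 1 rose and 11 fell. Besides Slc10a2, the uptake carriers Slc22a7 and Slco1a1 were lower, Slc22a7 21-fold lower (95% interval 6.99 to 103) in batch 1 and at −3.40 ± 0.35 in batch 2, and Slco1a1 at −3.04 ± 0.33 and −2.90 ± 0.32. The 2 that rose, named after their values were seen, were Abcb4, the phospholipid exporter, at 2.15 ± 0.46 and 1.93 ± 0.33, and Abcg2, an efflux pump, at 1.71 ± 0.16 and 0.65 ± 0.14.

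Targets of the drug receptors moved in both directions. Of 11 tested genes (of 18 listed) on CAR and PXR, 5 rose and 2 fell, which is 45.5% and 18.2% beside 29.7% and 31.1% of all probes. Their median L2FC was −0.08 and 1.00, the former 0.52 with genes near 0 counts at their bounds, and with total counts 4 rose and 3 fell. Gadd45b, a stress gene that CAR also induces, rose by 3.67 ± 0.20 and 3.35 ± 0.17, and Por, above, is on this list too, while Abcc2 (MRP2), the canalicular pump for glutathione and glucuronide conjugates, fell, at L2FC −3.52 ± 0.21 and −1.88 ± 0.18. Of 6 tested genes (of 8 listed) on the aryl hydrocarbon receptor, 2 rose and 2 fell, with a median L2FC of 1.25 and 0.49. That is 33.3% in each direction, near the 29.7% and 31.1% of all probes. Cyp1a1, the most responsive target, was at 0, 0.8 and 0.776 CPM with acetaminophen against 34.4, 34.3 and 24.5 CPM with vehicle in batch 1, and 1.15, 1.57 and 1.13 against 28.2 to 42.3 (median 35.2) CPM in batch 2. Aldh3a1 was 101-fold lower (95% interval 27.7 to 836) and 117-fold lower (95% interval 32.2 to 968). Tiparp, a feedback repressor of the receptor, rose by 3.50 ± 0.32 and 2.80 ± 0.28.

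Secreted liver proteins were divided. Of 27 tested genes (of 30 listed) on coagulation and fibrinolysis, 3 rose and 15 fell, with a median L2FC of −0.72 and −1.04, and with total counts 1 rose and 17 fell. Serpinf2 (alpha2-antiplasmin), Fgb (fibrinogen beta chain) and Serpind1 (heparin cofactor II) fell, with L2FC of −4.40 ± 0.40 and −3.75 ± 0.26 for Serpinf2, −2.37 ± 0.27 and −2.38 ± 0.20 for Fgb, and −3.85 ± 0.20 and −2.35 ± 0.17 for Serpind1. Of 21 tested genes (of 26 listed) on complement, 5 rose and 10 fell, with a median of −0.51 and −0.47, and with total counts 1 rose and 13 fell. The mannose-binding lectins Mbl2 and Mbl1 and the membrane attack gene C8a fell, with L2FC of −4.28 ± 0.14 and −4.45 ± 0.15 for Mbl2, −2.64 ± 0.23 and −2.63 ± 0.17 for Mbl1, and −2.44 ± 0.19 and −2.49 ± 0.14 for C8a. In both lists more members fell than rose.

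Acute phase and carrier protein genes rose in 9 and fell in 6 of 22 tested genes (of 25 listed), but with total counts 6 rose and 10 fell and the medians of 0.13 and 0.29 turned to −0.30 and −0.10. Orm1, orosomucoid, was at 63731, 53436 and 61540 CPM with acetaminophen against 11034, 13032 and 10903 CPM with vehicle in batch 1, and 27821, 26507 and 49235 against 7138 to 10898 (median 9165) CPM in batch 2, an L2FC of 2.35 ± 0.16 and 1.91 ± 0.18. Hamp, hepcidin, the hormone that limits iron uptake, was at 9.76, 39.98 and 24.3 CPM with acetaminophen against 2.09, 1.04 and 3.09 CPM with vehicle in batch 1, and 18, 37.5 and 11.8 against 0.88 to 3 (median 2.48) CPM in batch 2. Crp, C-reactive protein, fell, at L2FC −3.23 ± 0.31 and −2.28 ± 0.23, while Orm1 and Hamp were above vehicle in every well. Of 14 tested genes (of 19 listed) on apolipoproteins and lipoprotein assembly, 3 rose and 4 fell, with medians of −0.29 and 0.19, the latter −0.18 with total counts, where 2 rose and 6 fell. Apoa2, of high-density lipoprotein, rose by 2.60 ± 0.24 and 2.87 ± 0.21, and Tm6sf2 and Mttp, which load lipid onto very low-density lipoprotein, fell, with L2FC of −2.44 ± 0.14 and −1.93 ± 0.11 for Tm6sf2 and of −2.18 ± 0.11 and −1.75 ± 0.10 for Mttp.

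Amino acid metabolism had the largest share of lower members of any list with more than 20 tested genes. Of 34 tested genes (of 41 listed) on the urea cycle and amino acid breakdown, 4 rose and 29 fell, with a median L2FC of −2.93 and −2.60, and with total counts 1 rose and 29 fell. Bhmt, which remethylates homocysteine, was at 3.03, 1.2 and 1.55 CPM with acetaminophen against 155, 151 and 98.6 CPM with vehicle in batch 1, and 2.02, 3.28 and 1.29 against 97.8 to 168 (median 140.1) CPM in batch 2, an L2FC of −6.22 ± 0.49 and −5.94 ± 0.31. Hal, histidine ammonia-lyase, was 341-fold lower (95% interval 61 to 13506) in batch 1 and at −5.12 ± 0.38 in batch 2, and Uroc1, the next enzyme of histidine breakdown, fell, at L2FC −4.62 ± 0.48 and −4.44 ± 0.41. Cps1, which starts the urea cycle and is one of the hepatocyte markers, fell, at L2FC −3.66 ± 0.23 and −3.63 ± 0.24, from 279.5 to 365 CPM in the vehicle wells of batch 1 to 21.5 to 26.9 CPM.

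Liver genes of glucose metabolism were mostly lower. Of 16 tested genes (of 17 listed), 1 rose and 11 fell, with a median L2FC of −3.05 and −1.99, the former −2.41 with genes near 0 counts at their bounds. Gys2, liver glycogen synthase, was 55.7-fold lower (95% interval 15.2 to 464) in batch 1 and at −4.29 ± 0.24 in batch 2. Slc2a2 (GLUT2), the glucose carrier of the hepatocyte membrane, was at 5.72, 2.8 and 2.33 CPM with acetaminophen against 113, 110.3 and 104 CPM with vehicle in batch 1, and 10.4, 5.99 and 7.76 against 100.1 to 132 (median 105) CPM in batch 2, an L2FC of −4.99 ± 0.27 and −3.77 ± 0.19. The 1 member that rose was Irs2, an insulin receptor substrate, at 4.38 ± 0.38 and 2.79 ± 0.25, named after its value was seen. Among 25 tested genes (of 29 listed) on hypoxia and glycolysis, 5 rose and 4 fell, with a median L2FC of −0.08 and 0.42, against 2 and 8 and medians of −0.51 and 0.02 with total counts. The collagen prolyl hydroxylases P4ha1 and P4ha2 rose, with L2FC of 2.00 ± 0.27 and 2.11 ± 0.15 for P4ha1 and of 1.06 ± 0.12 and 1.24 ± 0.12 for P4ha2. Egln3, an oxygen sensor and itself a hypoxia target, fell, at L2FC −3.16 ± 0.38 and −2.44 ± 0.28.

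Fat oxidation genes were lower in most members that were called. Of 29 tested genes (of 36 listed) on PPARA and fatty acid oxidation, 3 rose and 18 fell, with a median L2FC of −0.88 and −0.88. Plin2, the coat protein of lipid droplets, was at 7.4, 17.8 and 8.02 CPM with acetaminophen against 310, 286 and 300 CPM with vehicle in batch 1, and 11.8, 13.8 and 8.73 against 238 to 294 (median 269) CPM in batch 2. The highest acetaminophen well was far below the lowest vehicle well, and L2FC was −4.69 ± 0.15 and −4.53 ± 0.13. Pdk4, which blocks glucose oxidation in fasting, rose but from few counts, and was 11-fold higher (95% interval 3.23 to 57.9) and 10.1-fold higher (95% interval 4.41 to 26.9). In the ST assay the fatty acid carrier CD36 fell, at L2FC −3.73 ± 0.43 and −2.43 ± 0.41. Fatty acid and triglyceride synthesis gave 5 rises and 7 falls among 18 tested genes (of 23 listed), with a median of −0.44 and −0.24. That is 27.8% and 38.9%, near the 29.7% and 31.1% of all probes, and with total counts 2 rose and 8 fell. Gpam, the first enzyme of triglyceride assembly, fell, at L2FC −3.93 ± 0.20 and −4.48 ± 0.23, as did Srebf1, the lipogenic regulator, at −2.42 ± 0.20 and −1.43 ± 0.15 and Thrsp at −1.13 ± 0.18 and −1.10 ± 0.18.

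Cholesterol genes had medians of opposite sign in the batches. Of 20 tested genes (of 25 listed), 6 rose and 5 fell, against 5 and 7 with total counts, and 2 were called with opposite signs, with a median L2FC of −0.30 in batch 1 and 0.74 in batch 2. Acat2, an acetyl-CoA acetyltransferase, was at 255, 317 and 278 CPM with acetaminophen against 27.4, 40.8 and 29.4 CPM with vehicle in batch 1, and 395, 324 and 295 against 12.1 to 18.3 (median 13.8) CPM in batch 2. Acat2 rose by 3.13 ± 0.17 and 4.52 ± 0.16 and the sterol reductase gene Hsd17b7 by 1.90 ± 0.19 and 2.99 ± 0.23, so both rises were smaller in batch 1. Over all probes, the interaction of batch and treatment was called for 626 (5.86%), for 259 of them with a difference of at least 1, and for 364 of the 6501 probes called in both batches with one sign.

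Genes of the respiratory chain and of ribosome assembly moved in both directions under TMM, as all probes did. Of 35 tested genes (of 41 listed) of the respiratory chain, 7 rose and 14 fell, with a median L2FC of −0.43 and −0.14, and with total counts 2 rose and 23 fell. The complex I genes Ndufb10 and Ndufs1 had L2FC of 1.39 ± 0.22 and 1.52 ± 0.14 for Ndufb10 and of −1.16 ± 0.23 and −1.21 ± 0.19 for Ndufs1. Ndufa8 was at −1.5 ± 0.46 and −1.20 ± 0.44, with overlapping wells in batch 2, a batch 2 call that ended without acetaminophen well 1 or 3, and no call against 400 µM. Of 29 tested genes (of 37 listed) on ribosome biogenesis, 6 rose and 10 fell, with a median of −0.25 and −0.07, and with total counts 3 rose and 14 fell. The nucleolar proteins Ncl and Npm1 rose, with L2FC of 1.43 ± 0.14 and 1.90 ± 0.13 for Ncl and of 1.16 ± 0.22 and 1.82 ± 0.17 for Npm1. Gar1, of the small nucleolar RNPs that modify ribosomal RNA, fell, at L2FC −1.51 ± 0.22 and −1.39 ± 0.26.

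Cell cycle genes fell in 8 and rose in 4 of 27 tested genes (of 39 listed), with a median L2FC of −1.04 and −0.14. The share that fell, 29.6%, was near the 31.1% of all probes, and the share that rose, 14.8%, was under their 29.7%. With total counts 3 rose and 11 fell. Ccnd1, cyclin D1, was at 1.68, 5.4 and 3.36 CPM with acetaminophen against 39.2, 32.4 and 31.7 CPM with vehicle in batch 1, and 1.15, 2 and 2.26 against 22.4 to 31 (median 25.8) CPM in batch 2, an L2FC of −3.21 ± 0.32 and −3.88 ± 0.41. Tk1, thymidine kinase, was 12.1-fold lower (95% interval 5.04 to 38.1) in batch 1 and at −3.15 ± 0.40 in batch 2. Pcna, the DNA polymerase clamp and a p53 target as well, rose by 2.65 ± 0.18 and 2.71 ± 0.18, apart from Ccnd1 and Tk1 in direction. In the ST assay E2F1, which drives entry into S phase, rose from 10.0 to 13.1 CPM up to 47.5 to 86.2 CPM in batch 1 and from 5.78 to 10.2 CPM up to 58.9 to 85.5 CPM in batch 2.

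Cytoskeletal genes were lower. Of 21 tested genes (of 25 listed) on actin, SRF and YAP, 2 rose and 15 fell, with a median L2FC of −1.25 and −1.5. Krt18, a keratin of the hepatocyte, was at 35.3, 63.8 and 37.8 CPM with acetaminophen against 848, 781 and 732 CPM with vehicle in batch 1, and 99.8, 117 and 52.4 against 912 to 1241 (median 1114) CPM in batch 2, and its partner Krt8 fell, at L2FC −3.92 ± 0.19 and −3.26 ± 0.17. Tpm1, tropomyosin, was at 18.2, 25 and 20.4 CPM with acetaminophen against 604, 588 and 571 CPM with vehicle in batch 1, and 10.9, 20.1 and 10.3 against 429.7 to 556 (median 545) CPM in batch 2, an L2FC of −4.78 ± 0.21 and −5.23 ± 0.30. It was the 1 named gene also called at 400 µM against vehicle in both batches, at −1.18 in each. The 7 stellate cell markers with a probe had lower sums in the same wells, at 26.6 to 55.9 against 95.6 to 155 CPM in batch 1 and at 12.8 to 23.4 against 32.5 to 48.9 CPM in batch 2, and their part in these falls was not tested. Of 15 tested genes (of 20 listed) of the clock, 6 rose and 7 fell, with a median L2FC of −0.70 and −0.07, against 3 and 7 with total counts. Nr1d2 (REV-ERB beta), a clock repressor, rose by 3.00 ± 0.22 and 4.76 ± 0.19, and Npas2, an activator of the clock, fell, at L2FC −5.29 ± 0.25 and −4.98 ± 0.19. Wells were taken at 1 time only, so a shift in phase and a change in level cannot be told apart.

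Over the 34 lists, which held 848 entries, 654 distinct genes were tested, of which 163 rose and 280 fell, beside 29.7% and 31.1% of all probes. With total counts as scale the more frequent direction turned in 5 of 34 lists, each named with its counts above. In 8 lists, those of NRF2, BCL2 family, apolipoprotein, cholesterol, fatty acid synthesis, aryl hydrocarbon receptor, respiratory chain and ribosome biogenesis genes, both shares lay within 10 percentage points of those of all probes.

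**Figure D3:**
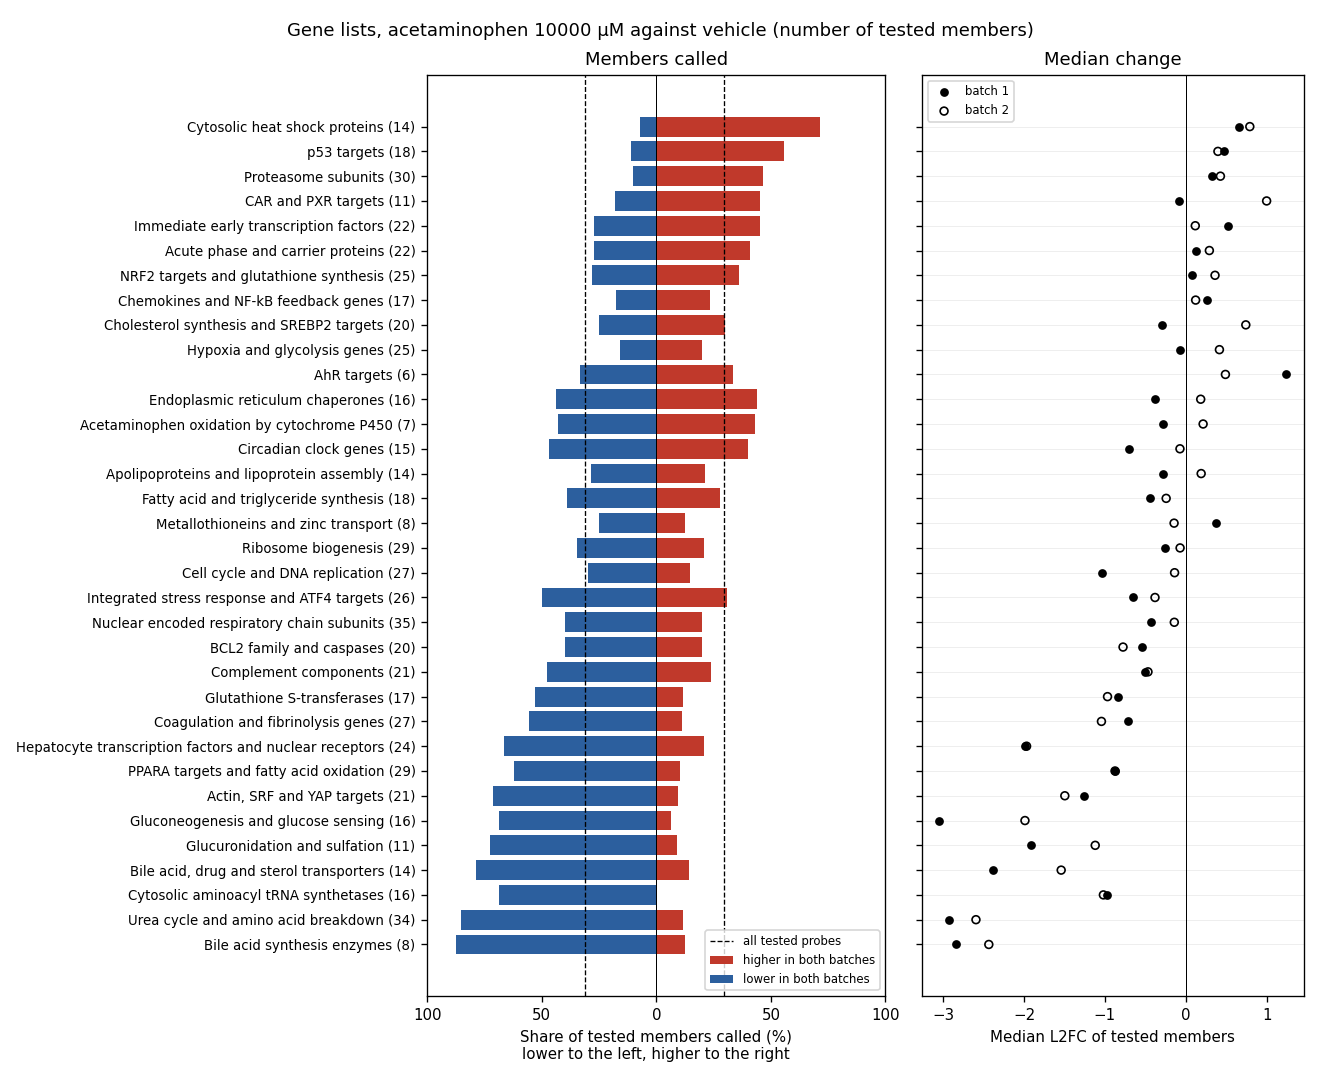
Left, the share of tested members of each of the 34 lists that fell (blue, to the left) or rose (red, to the right) in both batches, with dashed lines at 31.1% and 29.7%, the shares of all tested probes. Right, the median L2FC of each list in batch 1 (filled) and batch 2 (open); tRNA synthetases had 0 members higher, and urea cycle and amino acid genes had 29 of 34 lower.

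Acetaminophen wells were also compared directly with the 13 other high concentrations of the series, without the vehicle wells, though all 13 comparisons share the acetaminophen wells. The share of probes that differed in both batches with one sign ran from 54.2% against diclofenac (400 µM) to 61.4% against doxorubicin (2 µM). In both batches, 957 probes were higher than in all 13 others, 956 of which were also above vehicle, and 793 were lower than in all 13, 792 of which were also below vehicle. Of the 119 genes chosen by rule for the text, 45 differed from all 13 in their own direction, among them the rises of Txnrd1, Nqo1, Ftl1, Hspa1a, Cdkn1a, Mcl1 and Apoa2 and the falls of Cth, Bhmt, Nr1i2, Plin2, Krt18 and Bcl2l1. Cyp2e1 was higher than in 9 others and lower than in 2, caffeine (10000 µM), at −5.40 and −4.44, and the PPARA agonist WY14643 (200 µM), at −2.08 and −1.04. Por was higher than in 8 and lower than in the same 2. Chemicals were given at different concentrations, so these values stand side by side and are no ranking.

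**Figure D4:**
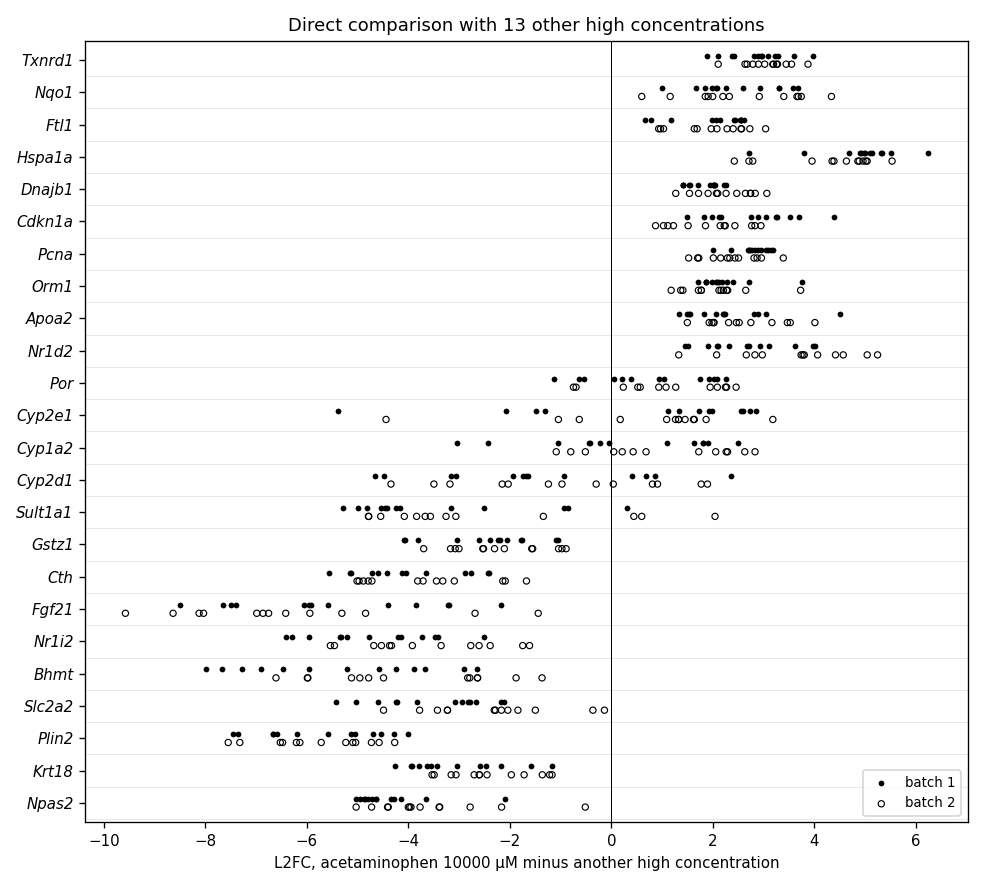
For 24 named genes, each point is the L2FC of acetaminophen 10000 µM minus 1 of the 13 other high concentrations, filled for batch 1 and open for batch 2. Points of Txnrd1, Nqo1 and Hspa1a lie to the right of 0 and those of Cth, Bhmt and Krt18 to the left, while Cyp2e1, Por, Cyp1a2 and Cyp2d1 have points on both sides.

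The ST assay, run on lysate of the same wells and so no independent sample, gave 533 probes higher (29.9%) and 586 lower (32.9%) in both batches of 1781 tested. Of 1603 genes tested in both assays, 1039 were called by WT, of which 923 were called by ST with the same sign and 1 with the opposite sign. The 119 genes named by rule were chosen among WT calls, apart from the tested members of the acetaminophen oxidation list. That 118 were called by WT, Cyp1a2 being the exception, therefore follows from the choice. Against the 400 µM wells 116 of the 119 were also called with the same sign, with the same acetaminophen wells in that comparison. Of the 70 with an ST probe, 69 were called by ST with the same sign.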

How the data were processed

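Primary rat hepatocytes in 96-well plates were lysed after 24 h and run by TempO-Seq. Per the submitters' processing notes the reads were aligned with STAR 2.5.3a to the rat genome rn6, and the deposited table of each assay holds raw counts, which the authors had not normalized, by probe and well. Groups were taken from the labels of each well. All 186 wells of an assay entered, in 2 batches fitted apart, with 1 group per treatment.

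Probes with a mean of at least 10 counts over the 186 wells were kept, 10689 of 22253 WT and 1781 of 2654 ST probes. Contrasts on TMM-scaled counts were tested by edgeR 4.0.16 (quasi-likelihood) under R 4.3.3, with Benjamini-Hochberg adjustment over all probes and a threshold of 0.05. A call in both batches with one sign is the main result. The interaction of batch and treatment was fitted over both batches. The fitting code was tested on simulated data. Tables were read with the data.table package (1.17.8). Genes are named by the symbols of the tables, and where 1 gene had several WT probes (455 genes), the probe with the highest mean count stands for it.

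Except on acetaminophen oxidation, the named genes were taken only among probes called in both batches with one sign. They are the 8 largest rises and 8 largest falls by the smaller absolute L2FC of the 2 batches, and up to 3 members of each of 34 gene lists by the same rank. Every tested member of the list on acetaminophen oxidation was added, called or not. Probes whose vehicle wells in a batch all had 3 counts or fewer were ranked apart, and genes without an assigned name were left out. Some genes that meet these rules are not reported here. The members and lists were chosen with earlier results of these data known. Depth was 3639634 to 8882292 WT reads in acetaminophen wells, and a low count limits which probes could be tested. Promoter sequences came from a RefSeq table of the rat assembly GRCr8, not the build of the reads, and no genome was used. Alternatives tried were DESeq2 1.42.0 (the tool of the study), RLE factors (limma 3.58.1 was loaded with edgeR), total counts alone, leaving the count filter out, a minimum absolute L2FC of 1, other reference wells, both batches in one fit, probes of a symbol added, and each well left out in turn. The wells with culture medium alone had no part in the comparisons.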

Additional observations from a re-analysis of the deposited data

Results flagged for a closer look

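In 9 named genes the response to acetaminophen differed between the batches by at least 1 on the log2 scale (L2FC in batch 1 minus L2FC in batch 2), by the edgeR test of the interaction with Benjamini-Hochberg adjustment. Among genes that fell in both batches, the fall was larger in batch 1 for Sult1b1 (−1.72, adjusted p = 5.98e-07), Abcc2 (−1.66, adjusted p = 1.34e-05), Serpind1 (−1.51, adjusted p = 4.14e-06), Slc2a2 (−1.24, adjusted p = 0.0144) and Srebf1 (−1.02, adjusted p = 0.00395). Cryab fell less in batch 1, by 1.17 (adjusted p = 0.004). Among genes that rose, the rise was smaller in batch 1 for Nr1d2 (−1.77, adjusted p = 9.63e-07), Acat2 (−1.41, adjusted p = 2.6e-06) and Hsd17b7 (−1.11, adjusted p = 0.0144). Acat2, Hsd17b7 and Srebf1 are genes of sterol and lipid synthesis control, and the batches were different rats, plates and sequencing runs, which cannot be told apart here.

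Single wells stood apart in 2 of 120 groups of 6 vehicle wells tested, where chance gives about 5%. Pygm was at 1.10 CPM in 1 vehicle well of batch 2 and at 0.143 to 0.298 CPM in the others, all far under its level with acetaminophen. The 10 most abundant WT probes took 10.5% of reads in 1 vehicle well of batch 2 and 11.6% to 11.7% in the others.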

How the results depend on the processing

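Scaling by total counts and a minimum size of change moved several counts of calls by over 1.5 times. With total counts alone, 2256 probes were higher in batch 1 and 2607 in batch 2, 1982 in both, 283 ST probes in both, and 1754 against 400 µM. With an absolute L2FC of at least 1, batch 1 gave 2035 higher and 2521 lower, batch 2 1970 and 2528, both batches 1608 and 2086, ST 292 higher, the interaction 259, and 400 µM as reference 1424 and 1946. DESeq2 called 387 interactions. Leaving out 1 well at a time gave 3262 to 3411 higher and 3586 to 3691 lower in batch 1, 3695 to 3877 and 3738 to 4000 in batch 2, 2996 to 3170 and 3170 to 3315 in both, and 495 to 534 and 550 to 589 by ST. Of the 176 values behind these counts, 160 stayed within 1.5 times the reported one. For lists, 1955 of 2108 counts and medians stayed within 1.5 times the reported count or within the spread. Of 476 medians under an alternative, 15 changed sign. Of these, 12 did so with total counts, in 9 lists, among them NRF2 targets in batch 2 (−0.017), metallothioneins and zinc transport in batch 1 (−0.053), acute phase genes in batch 2 (−0.10) and proteasome subunits in batch 1 (−0.10), 2 with 400 µM as reference (acute phase genes in batch 1, chemokines in batch 2) and 1 without the count filter (NRF2 targets in batch 1). Of 3710 values of named genes, 3699 kept direction and call and 1 changed sign, Cyp1a2 in batch 2 (−0.18, total counts). Of 7 lost calls, 3 were against 400 µM (Cxcl10 in batch 2, Ndufa8 in both), 3 with a well left out and 1 with total counts (Cyp3a9 in batch 1). With both batches in one fit and batch as a term, 4136 WT probes were higher and 4290 lower, and 689 and 747 by ST. Within a batch, no paired analysis was possible because the labels give the wells no replicate number. Calls rest on 1 rat per batch, and vehicle and acetaminophen lay on different plates in batch 1.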

Other observations

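Some listed genes, among them genes of drug transport and hormone response, had a probe under their symbol only in the ST assay. ABCB1A, an efflux pump, was at 55.4 to 83.5 CPM with acetaminophen and 5.36 to 15.5 CPM with vehicle in batch 1, and at 35.6 to 47.5 and 5.78 to 19.8 CPM in batch 2, and rose with an L2FC of 2.79 ± 0.36 and 2.08 ± 0.27. Its close relative ABCB1B was lower, at −1.31 ± 0.22 and −1.46 ± 0.12. NR3C1, the glucocorticoid receptor, to which the dexamethasone of the medium binds, was at −1.39 ± 0.16 and −1.71 ± 0.12. The fetuin gene AHSG was at −1.60 ± 0.12 and −1.10 ± 0.10. All 4 were called in both batches by edgeR.

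Of the 41 WT probes called in both batches with opposite signs, Duox2 and Duoxa1, a hydrogen peroxide-producing oxidase and its maturation factor, and Nr1d1, the close relative of Nr1d2, were among those with the largest differences, and they were picked here after their values were seen. Duox2 had an L2FC of 3.06 ± 0.96 in batch 1 and −3.05 ± 0.64 in batch 2. Duoxa1 was at 1.28 ± 0.38 and −1.07 ± 0.28. Nr1d1, by its most abundant probe, was at −0.74 ± 0.12 and 2.90 ± 0.16.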
